A study of Mus musculus with 18 samples.

Results

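The comparison described here set brain myeloid cells of aged mice with a stroke against the same cells of aged mice without one, both given vehicle. It rests on 6 of the 18 RNA-seq libraries of the series, chosen by their group labels alone. The stroke group held 3 libraries from male wild-type mice of 18 to 20 months that had a middle cerebral artery occlusion and received vehicle, which was 3% DMSO in saline. The other group held 3 libraries from male wild-type mice of 18 to 20 months that had no stroke and received the same vehicle. The sources used here do not say whether the mice without a stroke had any surgery. The remaining libraries came from aged mice with and without stroke that received bexarotene at 5 mg/kg, a drug that activates RXR, a nuclear receptor for retinoids, and from young mice. Injections into the abdomen began in the first 24 h after surgery and went on daily for 2 days, and cells were taken on day 3. Brains were digested, myelin was removed on Percoll, neutrophils were taken out with beads against Ly6G, and the remaining cells were selected with beads against CD11b, the integrin alpha M found on microglia, monocytes and macrophages. The cells sequenced were therefore every CD11b-positive cell left in the brain preparation and not 1 purified cell type.

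Microglia are the resident macrophages of the brain. They depend on signals such as TGF-beta and colony stimulating factor 1 for a set of genes that marks their resting, or homeostatic, state. After an arterial occlusion, microglia near the dying tissue become reactive and divide, and monocytes enter from the blood and turn into macrophages that clear debris. Both populations carry CD11b, so that both are held in the libraries compared here.

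The 3 stroke libraries held 16402880 to 21009478 counts over all genes, and the 3 libraries without stroke held 10246885 to 10656746. Values are given as CPM, that is counts scaled to a common library size of 1000000, after TMM scaling, in the order of replicates 1, 2 and 3 of a group, and replicate numbers were not shown to pair libraries of different groups. The smallest level that 3 counts give in 1 library was 0.143 to 0.183 CPM in the stroke libraries, against 0.282 to 0.293 CPM in the libraries without stroke, and it covers counting error only. A total of 15528 genes passed the filter on low counts and were tested with edgeR's quasi-likelihood test in a model of all 18 libraries, with Benjamini-Hochberg adjustment over all of them. A gene is said to have risen or fallen where its adjusted p was under 0.05, and fold changes are log2 of stroke over no stroke with the standard error (SE). The SE is approximate. It was taken as the size of the log2 fold change over the square root of the test's F statistic. The labels call the libraries of a group biological replicates without saying that each came from its own animal. The p-values therefore measure the spread between libraries within groups, which may be technical in part. That spread was estimated over all 18 libraries and not over the 6 compared here alone. The first principal component of the 6 libraries took up 70.5% of their variance and separated the groups, with scores of 68.8 to 82.1 for stroke libraries, against -76.9 to -73.2 for libraries without stroke. The second took up 11.9% and set replicate 1 of the group without stroke, at 55.6, apart from the other libraries.

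A large share of the genes differed between the groups. With stroke, 7497 genes (48.3% of those tested) passed the test, of which 4216 rose (27.2%) and 3281 fell (21.1%). With upper quartile scaling, under which the median log2 fold change of all genes was -0.12 and not 0.02, 3500 rose and 4360 fell, so the balance of the directions depends on the scaling. The large changes lay mostly on one side. Tested against a 2-fold change with edgeR's glmTreat, 1310 genes (8.44%) were higher and 266 (1.71%) were lower. The 3 and 3 libraries did not overlap for 8705 genes, or 56.1% of those tested. Each count of a list below is to be read beside these shares of all genes tested.

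**Figure D1:**
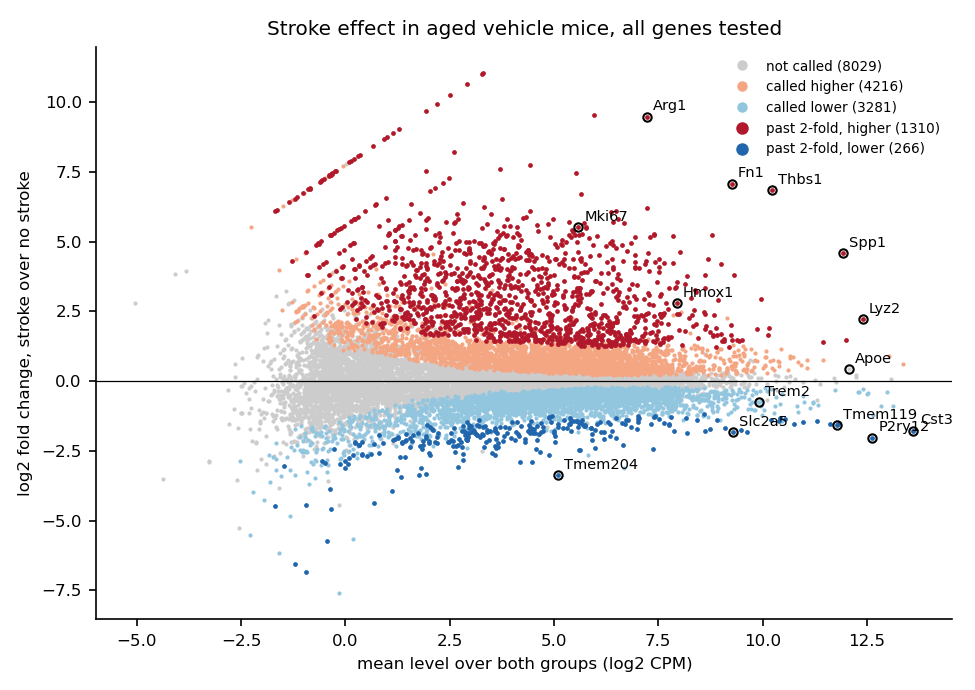
Log2 fold change of stroke over no stroke for each gene tested (y axis) against its mean level in log2 CPM over the 6 libraries (x axis), coloured by the call of edgeR's quasi-likelihood test. The 4216 genes that rose reach much larger fold changes than the 3281 that fell, and 2 genes with no counts in the 6 libraries are not drawn.

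Genes of resting microglia were lower after stroke. Of 17 such genes listed for this check, 15 fell, 10 of them past 2-fold, and none rose. P2ry12, the ADP receptor by which microglial processes find injury, had 2939, 2405 and 2171 CPM with stroke, against 9850.5, 10592 and 10128 CPM without. Every stroke library lay far below every library without stroke, and the gene was 4.07-fold lower (log2 fold change -2.02 ± 0.16 SE, edgeR adjusted p = 2.83e-08). Tmem119, a surface protein used as a marker of microglia, had 1821, 2004 and 1509.5 CPM with stroke, against 4744, 4939 and 6192 CPM without. The fractalkine receptor Cx3cr1 had 1554, 1892 and 1379 CPM with stroke, against 4904, 5197 and 3896 CPM without. Slc2a5, the fructose transporter GLUT5, was 3.54-fold lower (log2 fold change -1.82 ± 0.14 SE), and the protease inhibitor cystatin C (Cst3) was 3.42-fold lower (log2 fold change -1.78 ± 0.14 SE). Selplg, the ligand of P-selectin, fell by 1.53 on the log2 scale (SE 0.13). The libraries of the groups did not overlap for any of these 6 genes, nor for 56.1% of all genes tested. Fcrls and Olfml3, named after their values were seen, were the members that did not pass the test, with log2 fold changes of -0.12 ± 0.15 and -0.03 ± 0.12. The summed level of the list was 34199.6 to 37152 CPM with stroke, against 81952 to 90455 CPM without, or 3.6% of the reads of genes tested with stroke and 8.69% without.

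Genes of blood monocytes and the macrophages they become were higher after stroke. All 16 on the list rose past 2-fold, with a median log2 fold change of 5.23 beside 0.02 for all genes tested. Ccr2, the receptor that draws monocytes out of the bone marrow and into tissue, had 1004, 422 and 934 CPM with stroke, against 51.6, 32 and 29.1 CPM without. Ly6c2, the surface antigen of inflammatory monocytes, had 267, 80.7 and 151 CPM with stroke, against 2.81, 5.58 and 1.15 CPM without, and shares much of its sequence with Ly6c1, so reads may be split between them. In both genes replicate 2 was the lowest stroke library and still lay above every library without stroke. Thrombospondin 1 (Thbs1), a matrix protein that blocks the growth of vessels, had 2697, 1554 and 2889 CPM with stroke, against 25.2, 19.4 and 17.9 CPM without. The proteoglycan versican (Vcan) had 44.8, 33.9 and 49.2 CPM with stroke, against 0.362, 0 and 0.192 CPM without, the last of these close to or below the level that 3 counts give. The chemokine receptor Ccr1 was 10.2-fold higher (log2 fold change 3.35 ± 0.27 SE), and the integrin alpha 4 chain Itga4, which holds leukocytes to vessel walls, was 10.1-fold higher (log2 fold change 3.33 ± 0.30 SE). Ms4a4c was 37.6-fold higher (log2 fold change 5.23 ± 0.46 SE), and the calcium-binding protein S100a4 was 40.1-fold higher (log2 fold change 5.33 ± 0.56 SE).

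The summed level of the monocyte list was 17813, 11908 and 19287 CPM with stroke, against 1536, 2531 and 2183 CPM without. Replicate 2 was the lowest of the stroke libraries for 14 of the 16 genes. In bulk libraries such as these, a change in the number of cells of a type and a change in the RNA of each cell cannot be told apart, which holds for each group of genes that follows. The monocyte genes rose in the same 3 libraries as all genes said to have risen here, and their part in those changes was not tested.

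**Figure D2:**
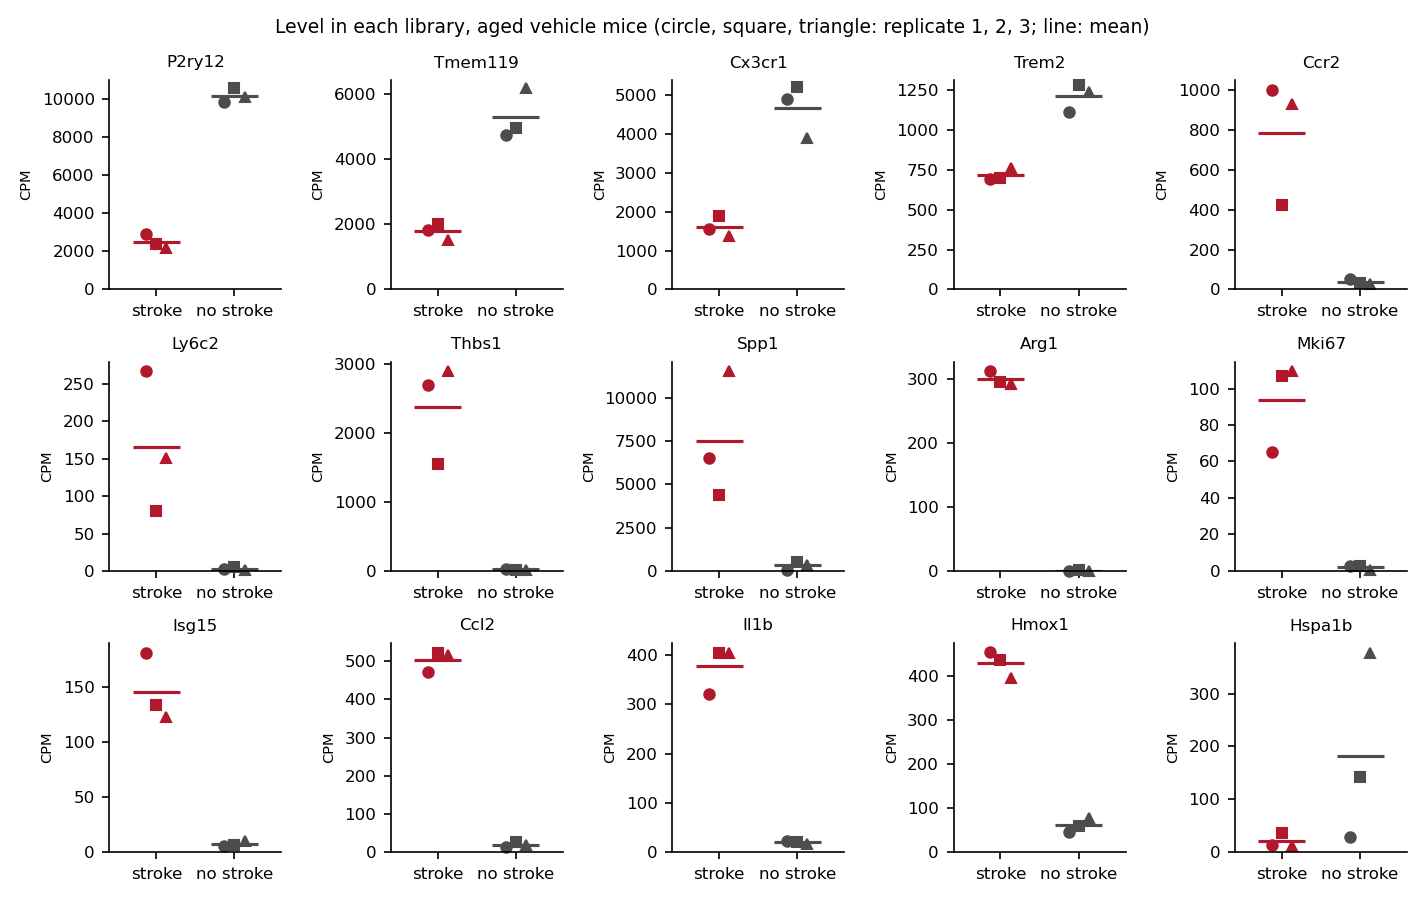
CPM in each of the 3 stroke libraries (left in each panel) and the 3 libraries without stroke (right) for 15 named genes, with a bar at the group mean. P2ry12, Tmem119, Cx3cr1 and Trem2 lie lower with stroke, Hspa1b overlaps between the groups, and the other 10 genes lie higher with stroke in each library.

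Genes of the macrophages of the brain's borders, which line the meninges and the vessels, moved in both directions. Of 12 genes tested, 5 rose and 1 fell, and without replicate 2 of the stroke group 3 fell. The list summed to 1446 to 1529 CPM with stroke, against 853 to 993 CPM without, so its groups did not overlap. Sialoadhesin (Siglec1), which interferon also raises, had 49.9, 76.8 and 50.8 CPM with stroke, against 11, 8.02 and 6.43 CPM without. F13a1, the A chain of clotting factor XIII, was 3.4-fold higher (log2 fold change 1.77 ± 0.15 SE), and the platelet chemokine Pf4 was 3.07-fold higher (log2 fold change 1.62 ± 0.21 SE). Ms4a7 was 2.48-fold higher (log2 fold change 1.31 ± 0.28 SE). The lectin gene Cd209f fell, with 20.2, 19.9 and 9.3 CPM with stroke, against 52.6, 55.4 and 48 CPM without. Defining genes of these cells did not pass the test, as Mrc1, the mannose receptor, had 144, 207 and 109 CPM with stroke, against 189, 194 and 198 CPM without, and Lyve1, a hyaluronan receptor, had 17.7, 33.4 and 9.77 CPM with stroke, against 32.2, 20.2 and 57.5 CPM without. Both fell in edgeR's test without replicate 2 of the stroke group, at adjusted p = 0.00825 for Mrc1 and 0.0495 for Lyve1.

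Cells that the selection was meant to leave out gave small amounts of RNA in both groups. Ly6g, the antigen used to take out neutrophils, was at 0.442, 1.95 and 1.16 CPM with stroke, against 1.27, 1.27 and 0.192 CPM without, in part near the level of 3 counts. Of 14 neutrophil genes tested, 5 rose and none fell, but without any 1 of 5 libraries, namely replicate 2 or 3 of the stroke group or any replicate without stroke, only 2 rose. A fall was called for 1 gene without replicate 1 of the stroke group, and for 1 in limma voom, where 2 rose. It was called for 2 with the 6 libraries fitted alone and for 3 without a filter on low counts. Cxcr2, the receptor by which neutrophils follow chemokines, had 42.2, 167 and 67 CPM with stroke, against 5.07, 3.62 and 2.49 CPM without, and S100a8, a subunit of calprotectin, had 196, 795 and 349.9 CPM with stroke, against 104, 89.6 and 46.8 CPM without. Both were highest in replicate 2 of the stroke group, as were 9 of the 14 genes. The call of S100a8 is lost in edgeR's test without each of these 5 libraries (adjusted p 0.0557 to 0.156), while that of Cxcr2 is kept. Granule genes of immature neutrophils did not pass the test, as Camp had 8.55, 2.74 and 1.89 CPM with stroke, against 14.6, 18.7 and 8.73 CPM without. The summed level of the list was 983, 2376 and 1326 CPM with stroke, against 929.8, 846 and 671 CPM without.

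RNA of T and NK cells and of neurons was scarce. Of the 12 genes for T and NK cells, 8 were tested and 3 rose, or 1 without replicate 3 of the stroke group or replicate 1 of the group without stroke, and the list summed to 9.57 to 19.4 CPM with stroke, against 7.44 to 8.73 CPM without. Of the 5 B cell genes tested of 7, Ighm, the heavy chain of IgM, fell, with 378, 256 and 295 CPM with stroke, against 499.8, 575 and 460.2 CPM without, and Ms4a1 (CD20) rose, with 1.62, 0 and 2.1 CPM with stroke, against 0, 0.294 and 0.0959 CPM without. The call of Ms4a1 is lost in limma voom, among other settings, and no gene rose without replicate 1 or 3 of either group, whereas 2 rose without replicate 2 of the stroke group and 2 fell without replicate 3 of the group without stroke. The B cell list summed to 273 to 403 CPM with stroke, against 496 to 613 CPM without, so its groups did not overlap, and Ighm made up most of it in each library. Of the 8 neuronal genes only Snap25 passed the filter, with 0.442, 0.366 and 0.735 CPM with stroke, against 0.725, 0.489 and 0.192 CPM without. Dendritic cells, which carry antigen to lymphocytes, gave 3 genes that rose and 1 that fell of 8 tested. Without replicate 3 of the stroke group 2 fell. Of all genes tested 27.2% rose and 21.1% fell. The median log2 fold change of the list was -0.09. It summed to 47 to 93.5 CPM with stroke, against 79.3 to 105 CPM without. Flt3, the cytokine receptor that dendritic cells need to develop, had 13, 7.31 and 17.5 CPM with stroke, against 2.72, 1.08 and 0.672 CPM without.

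None of the 6 genes tested for the choroid plexus, the tissue that makes cerebrospinal fluid, passed the test, but with the replicate number as a block Ttr rose, at a log2 fold change of 1.22 (edgeR adjusted p = 0.0413). Transthyretin (Ttr), its main secreted protein, varied within the groups, with 1988, 594 and 701 CPM with stroke, against 1481, 109 and 384 CPM without. Replicate 1 was the highest in each group for all 6 genes. Of 6 endothelial genes tested, 2 rose and 1 fell, beside 27.2% and 21.1% of all genes tested, with a median log2 fold change of 0.51. Kdr, a receptor of vascular endothelial growth factor, rose, with 28.6, 23.7 and 19.4 CPM with stroke, against 13.5, 10.3 and 12.4 CPM without, as did Ly6c1, with 6.54, 1.65 and 2.52 CPM with stroke, against 0, 0.489 and 0.576 CPM without, and Pecam1, an adhesion molecule also carried by leukocytes, fell, with 19.2, 11.7 and 14.4 CPM with stroke, against 26.4, 29.4 and 31.9 CPM without. Of 8 astrocyte genes, 1 rose and 1 fell, with a median of -0.17. The filament gene Gfap rose, with 3.29, 2.99 and 2.89 CPM with stroke, against 1.18, 0.978 and 0.384 CPM without, and the glutamate transporter Slc1a3 fell, with 114, 111 and 92.3 CPM with stroke, against 310.0, 319.9 and 468 CPM without. Without replicate 1 of the stroke group 3 astrocyte genes fell, and the count that rose was 2 without replicate 1 and 0 without replicate 3 of the group without stroke. Of 6 oligodendrocyte genes 1 rose and 1 fell, of 5 platelet and red cell genes 1 rose and 1 fell, and of 6 mural and fibroblast genes 2 rose, or 1 without replicate 1 of the stroke group or replicate 3 of the group without stroke.

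The genes that copy DNA and those that run mitosis rose together. All 24 replication genes rose, 23 of them past 2-fold, and all 26 mitosis genes rose past 2-fold, with median log2 fold changes of 2.57 and 4.42. Mki67, the antigen Ki-67 that marks dividing cells, had 65.1, 107 and 109 CPM with stroke, against 2.81, 2.74 and 0.576 CPM without. Cdk1, the kinase that starts mitosis, had 60.6, 89.1 and 83.7 CPM with stroke, against 4.53, 4.89 and 4.7 CPM without, and was 16.5-fold higher (log2 fold change 4.04 ± 0.19 SE, edgeR adjusted p = 1.68e-10). These were low to moderate levels, and they stood apart from those without stroke by more than 10-fold in each stroke library. Survivin (Birc5), part of the complex that watches over chromosome attachment, was 31.5-fold higher (log2 fold change 4.98 ± 0.23 SE), and cyclin A2 (Ccna2) was 32-fold higher (log2 fold change 5.00 ± 0.25 SE). The spindle kinase Aurka was 16.2-fold higher, the spindle motor Kif11 was 18.5-fold higher, and Foxm1, the transcription factor of late cell cycle genes, was 14.4-fold higher. Summed over the list, mitosis genes stood at 1183, 1853 and 1776 CPM with stroke, against 67.8, 72.2 and 78 CPM without, a ratio of means of 22.1. Replicate 1 was the lowest stroke library for all 26 genes.

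Of the replication genes, thymidine kinase 1 (Tk1) had 33.6, 50.4 and 46.8 CPM with stroke, against 2.72, 2.35 and 2.88 CPM without. Rrm2, the subunit of ribonucleotide reductase that appears in S phase, had 58.2, 118 and 106 CPM with stroke, against 1.45, 3.42 and 2.69 CPM without. The subunits Mcm6 and Mcm5 of the helicase that opens DNA were 5.4-fold higher (log2 fold change 2.43 ± 0.18 SE) and 9.12-fold higher (log2 fold change 3.19 ± 0.24 SE). E2f1, the factor that turns on S phase genes, was 10.5-fold higher (log2 fold change 3.39 ± 0.28 SE), and cyclin E1 (Ccne1) was 22-fold higher (log2 fold change 4.46 ± 0.37 SE). Replicate 2 was the highest stroke library for all 24 genes and replicate 1 the lowest for 23, and even replicate 1 lay above each library without stroke. The replication list summed to 947, 1770.4 and 1325 CPM with stroke, against 298, 301 and 287 CPM without.

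Genes that hold the cell cycle back did not move as one. Of 12 inhibitors and p53 targets, 6 rose and 2 fell. The inhibitor p21 (Cdkn1a), a p53 target, had 219, 163 and 194 CPM with stroke, against 15.6, 23.6 and 31.9 CPM without. Cdkn2c and Cdkn2d, inhibitors of the kinases that start the cycle, were 7.13-fold higher (log2 fold change 2.83 ± 0.18 SE) and 6.18-fold higher (log2 fold change 2.63 ± 0.22 SE), and the death effector Bax was 1.58-fold higher (log2 fold change 0.66 ± 0.10 SE). The gene of p53 itself, Trp53, fell, with 47.3, 53.6 and 52.3 CPM with stroke, against 74.9, 83.6 and 77.2 CPM without, and the inhibitor Cdkn1c fell by 1.52 on the log2 scale (SE 0.29).

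Mitotic genes are known to carry 2 short elements in their promoters, the CHR (TTTGAA) and the CCAAT box, and replication genes often carry an E2F element (GCGGGAA). Exact matches on both strands were counted in RefSeq promoter windows of the build GRCm38.p6, from 250 bases before to 50 after the start site. Of the 20 mitosis genes with 1 window, 14 held a CHR (70.0%) and 17 a CCAAT box (85.0%), beside 12.5% and 39.7% of the 8167 genes tested that have 1 window, and 18.5% and 38.2% of all 22862 such promoters. An E2F element was held by 6 of 17 replication genes (35.3%), by 8.84% of the genes tested, by 4.6% of all promoters and by none of the 20 mitosis genes. A match describes the letters and is neither a bound site nor a cause. The windows of 3 mitosis genes with a low p that hold both elements are shown to let the spacing of the elements be seen, with CHR and CCAAT matches in capitals on either strand. Cdk1 is shown in full, and the others as the stretch of 120 bases that holds the matches. They are Cdk1 (chr10:69352863-69353162, minus strand), Aurka (chr2:172370521-172370640, minus strand) and Kif11 (chr19:37376293-37376412, plus strand).
Cdk1: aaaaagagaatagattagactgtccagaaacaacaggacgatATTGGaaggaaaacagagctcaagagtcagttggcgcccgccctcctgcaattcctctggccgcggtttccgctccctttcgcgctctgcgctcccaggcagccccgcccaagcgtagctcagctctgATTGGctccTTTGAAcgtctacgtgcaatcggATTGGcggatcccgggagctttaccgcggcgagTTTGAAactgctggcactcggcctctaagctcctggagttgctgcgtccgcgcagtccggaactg
Aurka: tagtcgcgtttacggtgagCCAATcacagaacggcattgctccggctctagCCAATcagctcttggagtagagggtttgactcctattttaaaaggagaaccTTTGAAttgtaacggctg
Kif11: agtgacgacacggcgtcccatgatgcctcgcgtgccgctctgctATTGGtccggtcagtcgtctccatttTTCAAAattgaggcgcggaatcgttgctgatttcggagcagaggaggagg
Stretches of the same length from the windows of Pola1, the catalytic subunit of DNA polymerase alpha (chrX:93632238-93632357, minus strand), and Rrm1, the large subunit of ribonucleotide reductase (chr7:102441571-102441690, plus strand), are shown as replication genes with an E2F match, in capitals.
Pola1: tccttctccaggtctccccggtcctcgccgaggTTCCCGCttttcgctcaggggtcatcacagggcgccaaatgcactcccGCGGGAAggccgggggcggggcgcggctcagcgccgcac
Rrm1: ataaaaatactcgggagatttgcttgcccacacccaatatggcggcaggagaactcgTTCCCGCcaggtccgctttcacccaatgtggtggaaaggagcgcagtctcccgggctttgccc
Pola1 had 20.1, 29.5 and 22.4 CPM with stroke, against 4.62, 4.4 and 4.7 CPM without, and Rrm1 had 89.1, 167 and 117 CPM with stroke, against 38.8, 38.1 and 37.3 CPM without.

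The response to type I interferon, by which cells answer viral or self nucleic acid, was higher in each stroke library. All 19 genes of the list rose past 2-fold, with a median log2 fold change of 3.20. Oas1a, which makes the second messenger that activates RNase L, had 239, 209 and 202 CPM with stroke, against 23.3, 21 and 34.4 CPM without. It was 8.25-fold higher (log2 fold change 3.04 ± 0.17 SE, edgeR adjusted p = 5.32e-10). Stat2, a subunit of the factor that carries the interferon signal to the nucleus, had 194, 182 and 147 CPM with stroke, against 55.6, 44.4 and 54.6 CPM without. Bst2, or tetherin, which holds budding virus at the cell surface, had 217, 237 and 217 CPM with stroke, against 63.3, 65.8 and 75.9 CPM without. Groups did not overlap in these 3 genes, as in 56.1% of all genes tested, and the stroke libraries differed little among themselves. Usp18, the protease that takes ISG15 off its targets and damps the response, was 7.64-fold higher (log2 fold change 2.93 ± 0.19 SE), and Oasl2 was 10.1-fold higher (log2 fold change 3.34 ± 0.20 SE). Ifi204 was 9.73-fold higher (log2 fold change 3.28 ± 0.19 SE), with near copies in its gene cluster that may share its reads. The list summed to 6864, 5794 and 5203 CPM with stroke, against 712, 659 and 855 CPM without, with replicate 1 the highest stroke library for 17 of 19 genes.

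Genes of this response carry the interferon-stimulated response element (ISRE, here GAAANNGAA). It was held by 8 of the 12 genes of the list with 1 window (66.7%), beside 7.92% of the genes tested and 8.62% of all promoters. Of the genes with a window, it was held by 15.3% of the 720 past 2-fold higher and 10.0% of the 140 past 2-fold lower, and by 10.5% of all 2193 that rose and 7.07% of all 1880 that fell. Stretches of 120 bases from the windows of 3 list genes with a low p and a match are shown with the matches in capitals. They are Oas1a (chr5:120907479-120907598, minus strand), Stat2 (chr10:128270248-128270367, plus strand) and Bst2 (chr8:71537536-71537655, minus strand).
Oas1a: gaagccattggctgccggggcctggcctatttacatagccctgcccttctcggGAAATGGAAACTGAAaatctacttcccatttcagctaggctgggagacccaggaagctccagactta
Stat2: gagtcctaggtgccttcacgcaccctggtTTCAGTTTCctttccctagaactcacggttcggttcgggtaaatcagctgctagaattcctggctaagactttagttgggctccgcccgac
Bst2: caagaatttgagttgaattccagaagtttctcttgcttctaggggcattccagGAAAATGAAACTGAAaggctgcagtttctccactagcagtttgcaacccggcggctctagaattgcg
In Oas1a and Bst2 a pair of matches overlap, which appears as 1 longer run of capitals.

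Genes that present antigen to CD8 T cells rose in part. Of 10 genes of the class I pathway, 7 rose, and none fell. The peptide transporter Tap1 had 175, 157 and 153 CPM with stroke, against 50.1, 51.8 and 48.4 CPM without, and Nlrc5, the activator of class I genes, had 53.8, 52.2 and 39.97 CPM with stroke, against 13, 10.5 and 8.63 CPM without. The immunoproteasome subunits Psmb8, Psmb9 and Psmb10 were 1.76-fold higher, 1.55-fold higher and 1.6-fold higher. H2-K1 had 925, 704 and 1053 CPM with stroke, against 420.2, 567 and 542 CPM without, and it shares sequence with other class I genes, so its reads may be split. Of the 7 genes of the class II pathway, which serves CD4 T cells, Ciita, their activator, alone rose, with 22.1, 6.15 and 16.9 CPM with stroke, against 3.17, 4.5 and 3.26 CPM without. None fell in this fit, but 1 fell without replicate 1 of either group and under most other settings. These included DESeq2, limma voom, the 6 libraries alone and each scaling other than TMM. The class II chain H2-Ab1 had 731, 256 and 568 CPM with stroke, against 197, 330.1 and 267 CPM without, and the invariant chain Cd74 had 1512, 475 and 1121 CPM with stroke, against 423, 729.7 and 686 CPM without. Replicate 2 of the stroke group was the lowest for all 7 genes, as it was for 14 of 16 monocyte genes, and without it 5 of the 7 rose.

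Inflammatory mediators moved in both directions. Of 17, 10 rose and 4 fell. Il1b, the fever cytokine interleukin 1 beta, had 321, 404 and 404 CPM with stroke, against 23.7, 20.8 and 16.1 CPM without, and Tnf had 59.8, 42.3 and 63.9 CPM with stroke, against 10.5, 6.07 and 8.15 CPM without. Il6 went the other way, with 7.03, 2.99 and 4.94 CPM with stroke, against 19.3, 13.6 and 13.3 CPM without. All 3 were without overlap between the groups, as were 56.1% of all genes tested. Oncostatin M (Osm) was 6.37-fold higher (log2 fold change 2.67 ± 0.38 SE), prostaglandin synthase 2 (Ptgs2) was 36.4-fold higher (log2 fold change 5.19 ± 0.90 SE), and the receptor of bacterial lipoprotein Tlr2 was 2.23-fold higher (log2 fold change 1.16 ± 0.16 SE).

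Among 12 genes of the interleukin 1 family and the inflammasome, 6 rose. Without replicate 1 of the stroke group or replicate 3 of the group without stroke, 1 fell, and with all libraries none did. Il18bp, which binds and blocks interleukin 18, had 29.7, 27.1 and 28.3 CPM with stroke, against 6.88, 5.87 and 4.41 CPM without. The decoy receptor Il1r2 had 40.3, 97.8 and 51.5 CPM with stroke, against 2.08, 0.978 and 3.17 CPM without, and Il18rap had 14.4, 16.9 and 13.7 CPM with stroke, against 0.725, 1.57 and 0.0959 CPM without. Il1r2 was highest in replicate 2 of the stroke group, which also had the highest neutrophil genes, and their part in it was not tested. The shared receptor chain Il1rap was 2.24-fold higher (log2 fold change 1.16 ± 0.17 SE), and Casp4, the sensor of cytosolic lipopolysaccharide, was 2.33-fold higher (log2 fold change 1.22 ± 0.22 SE).

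Of 14 TNF ligands and receptors, 9 rose and 1 fell, or 2 fell without replicate 1 of the stroke group. Tnfsf14 (LIGHT), a ligand of T cell and stromal receptors, had 10.9, 11.8 and 12.9 CPM with stroke, against 0.181, 0.391 and 0.0959 CPM without. The costimulatory receptor Cd40 had 19.6, 11.3 and 16.7 CPM with stroke, against 2.26, 1.57 and 1.34 CPM without, and the death receptor Fas had 11.2, 9.69 and 14.8 CPM with stroke, against 2.99, 4.4 and 3.17 CPM without. Tnfrsf26 was 4.91-fold higher (log2 fold change 2.30 ± 0.41 SE), and the costimulatory ligand Tnfsf9 was 3.28-fold higher (log2 fold change 1.71 ± 0.40 SE). Tnfsf13b (BAFF), a survival factor of B cells, fell, with 42.7, 45.9 and 38.4 CPM with stroke, against 73.5, 70.7 and 59.8 CPM without. Of 14 Toll-like receptors and adaptors, 4 rose and 5 fell, where 27.2% of all genes tested rose and 21.1% fell, so that the share that rose was near that of all genes. Tlr8 rose, with 65.2, 40.9 and 52.6 CPM with stroke, against 12.2, 16.5 and 13.1 CPM without, and the adaptor Myd88 was 1.7-fold higher. Tlr4, the receptor of lipopolysaccharide, fell, with 181, 220.3 and 164 CPM with stroke, against 266, 318 and 374 CPM without, as did Tlr12, with 45.8, 33.1 and 25.1 CPM with stroke, against 85, 105 and 98.1 CPM without. Unc93b1, which carries Toll-like receptors to endosomes, fell by 0.48 on the log2 scale (SE 0.08), and the inhibitory kinase Irak3 was 1.9-fold higher (log2 fold change 0.93 ± 0.21 SE).

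Chemokines were among the larger rises. Of 18 tested, 13 rose and none fell, 11 of them past 2-fold, with a median log2 fold change of 2.16. Without replicate 2 of the stroke group, 1 fell. Ccl2, the main ligand of CCR2, had 471, 521 and 516 CPM with stroke, against 14.1, 26.8 and 19.8 CPM without. Its relatives on the same receptors, Ccl12 and Ccl7, had 621, 1235 and 750.3 CPM with stroke, against 116, 119 and 109 CPM without, and 182, 224 and 180.2 CPM with stroke, against 25.1, 28.4 and 27.7 CPM without. Ccl12 was highest in replicate 2, whereas Ccl2 was alike in the 3 stroke libraries. Cxcl10, an interferon-induced ligand for T cells, was 29.2-fold higher (log2 fold change 4.87 ± 0.40 SE), and Ccl4 was 4.84-fold higher (log2 fold change 2.28 ± 0.24 SE). Ccl6 was 4.01-fold higher (log2 fold change 2.00 ± 0.20 SE).

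The neutrophil attractant Cxcl3 had 6.49, 27.4 and 11.2 CPM with stroke and no counts without, which puts it at least 150-fold higher against a floor of 3 counts over the group. The list's median is the same with this gene at its bound. Of 11 receptors, 6 rose and 4 fell, or 2 fell without replicate 3 of either group. Besides Ccr1 and Ccr2, the CXCL12 receptor Cxcr4 had 40.00, 23.5 and 32.5 CPM with stroke, against 1.09, 1.96 and 1.54 CPM without. Ccrl2, which holds chemerin at the cell surface, was 3.5-fold higher (log2 fold change 1.81 ± 0.21 SE), and Ccr7, the receptor that leads cells to lymph nodes, had 6.63, 2.5 and 7.77 CPM with stroke, against 0, 0.294 and 0 CPM without, a ratio of 61.3 (95% exact interval of the counts 20.8 to 299, counting error only). Its call is lost in limma voom, at adjusted p = 0.0865.

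Genes of the disease-associated state of microglia, first described around amyloid plaques, rose in part. Of 20, 12 rose and Trem2 alone fell, or 2 fell without replicate 3 of the stroke group. Osteopontin (Spp1) had 6549.6, 4385 and 11529 CPM with stroke, against 79.97, 514 and 346 CPM without. Fabp5, which binds fatty acids, had 297, 123 and 243 CPM with stroke, against 2.17, 12.3 and 6.91 CPM without. The libraries varied within both groups in these genes, and replicate 1 was the lowest library without stroke for all 20 members. The lysosomal protease cathepsin B (Ctsb) and the tetraspanin Cd63 were 1.87-fold higher (log2 fold change 0.90 ± 0.14 SE) and 1.86-fold higher (log2 fold change 0.89 ± 0.14 SE). Trem2, the lipid receptor that microglia need to enter that state, had 689, 697 and 761 CPM with stroke, against 1114, 1282 and 1239 CPM without. Apolipoprotein E (Apoe) had 5128, 4182 and 5518 CPM with stroke, against 2035, 4955 and 3953 CPM without, and Igf1 had 16.6, 6.4 and 22.8 CPM with stroke, against 12, 22.4 and 23.9 CPM without, and neither passed the test. Without replicate 2 of the group without stroke, Apoe rose at adjusted p = 0.021 in edgeR's test.

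**Figure D3:**
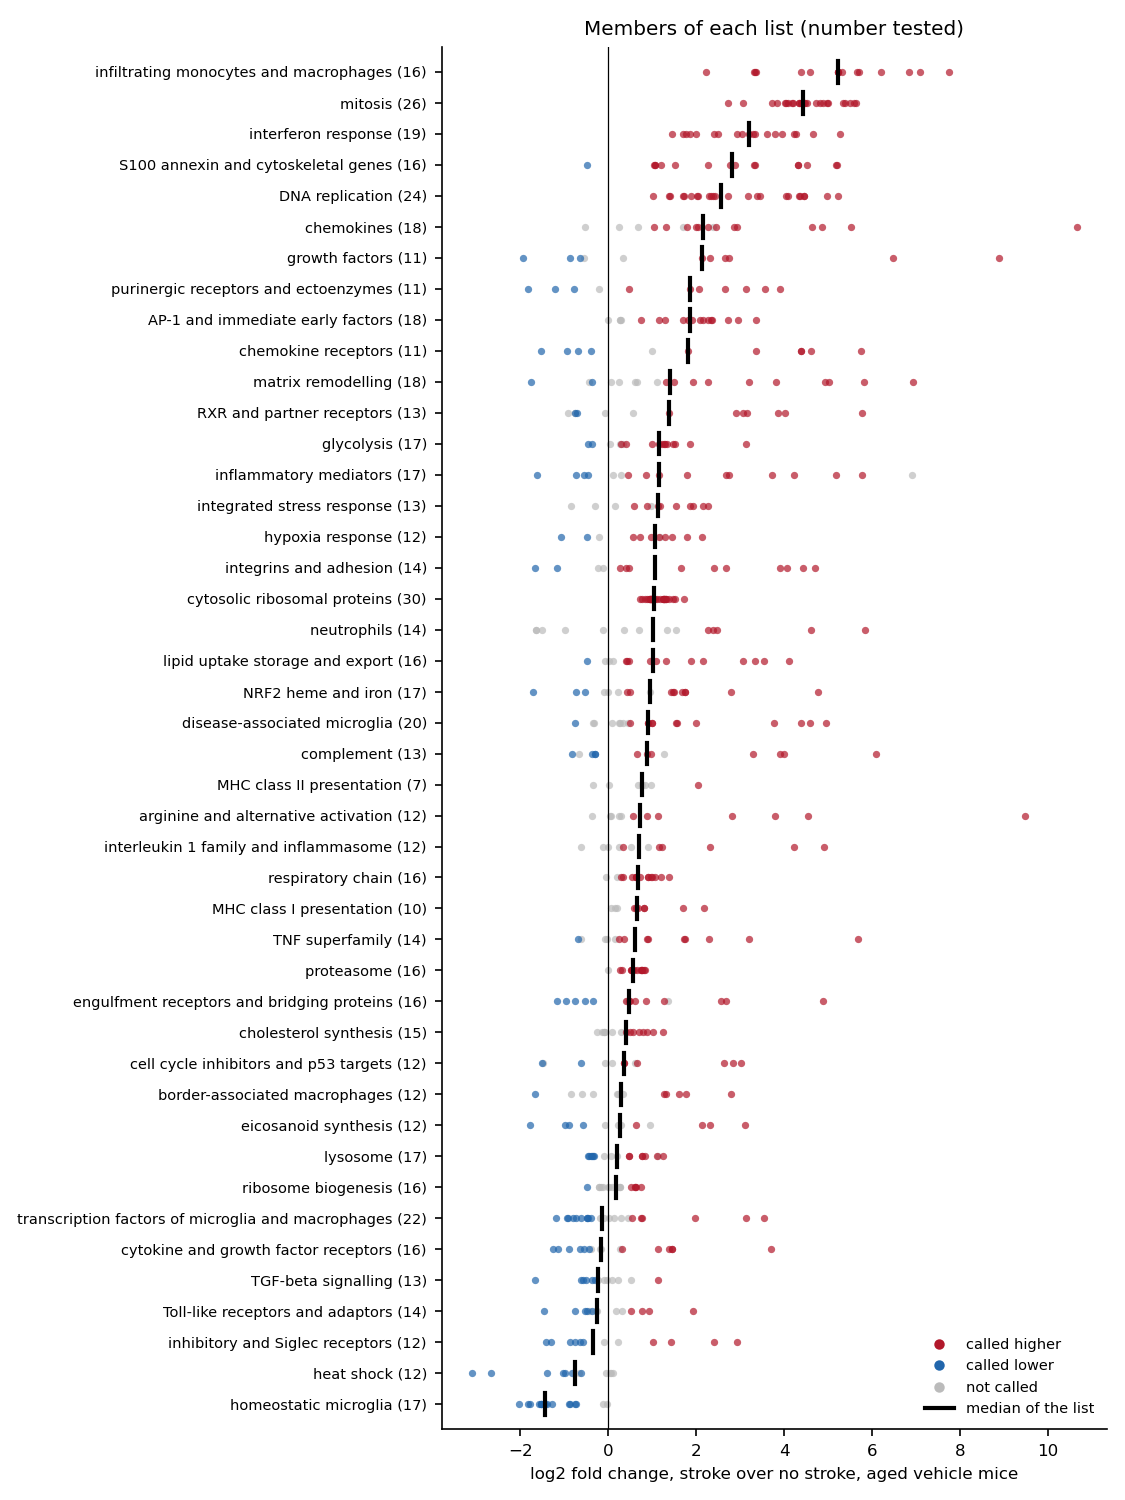
Log2 fold change of stroke over no stroke (x axis) of each member tested of the gene lists (rows), with the list's median as a bar and genes without counts in a group at their fitted value. Mitosis, interferon, S100 and annexin, and replication genes have the highest medians among the lists of cell states, and heat shock genes the lowest.

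Genes of lipid uptake and storage were mostly higher with stroke. Of 16 genes, 12 rose and 1 fell. The scavenger receptor Msr1, which takes up modified lipoproteins, had 412, 451 and 504 CPM with stroke, against 29.3, 41.5 and 46 CPM without, and was 11.7-fold higher (log2 fold change 3.55 ± 0.19 SE, edgeR adjusted p = 3.73e-10). Perilipin 2 (Plin2), the coat of lipid droplets, had 865, 617 and 654 CPM with stroke, against 47.4, 70.5 and 94.3 CPM without. Ch25h, which makes 25-hydroxycholesterol, had 144, 137 and 204 CPM with stroke, against 6.25, 11 and 11.1 CPM without. No stroke library of these 3 genes came near the libraries without stroke. Soat1, which esterifies cholesterol for storage, was 1.93-fold higher (log2 fold change 0.95 ± 0.12 SE), and the fatty acid translocase Cd36 was 2.12-fold higher (log2 fold change 1.09 ± 0.16 SE). The cholesterol exporter Abca1 did not pass the test, with 423, 458 and 510.2 CPM with stroke, against 499.9, 466 and 410.2 CPM without. Its partner Abcg1 had 126, 112 and 141 CPM with stroke, against 99.4, 100.3 and 87.7 CPM without, at edgeR adjusted p = 0.0169, and its call is lost without replicate 3 of either group (adjusted p = 0.087 without the stroke library and 0.11 without the other).

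The nuclear receptor RXR, the target of bexarotene, and its partners moved apart. Of 13 receptors tested, 7 rose and 2 fell. Rxra and Rxrb fell, with 62.6, 50.3 and 60.2 CPM with stroke, against 91, 90.4 and 102 CPM without for Rxra, and 65.1, 65.3 and 53.7 CPM with stroke, against 100.1, 101 and 109.7 CPM without for Rxrb. Their partners Rara and Pparg, which bind retinoic acid and fatty acids, rose, with 40.7, 34.5 and 38.1 CPM with stroke, against 3.62, 2.84 and 1.34 CPM without for Rara, and 5.995, 3.53 and 5.88 CPM with stroke, against 0.181, 0.685 and 0.863 CPM without for Pparg. The oxysterol receptor Nr1h3 (LXR alpha) was 7.48-fold higher (log2 fold change 2.90 ± 0.47 SE), and Nr4a1, an immediate early receptor, was 16.3-fold higher (log2 fold change 4.03 ± 0.43 SE).

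Most genes of glycolysis rose. Of 17 genes, 12 rose and 2 fell, or 1 fell without replicate 1 or 3 of the stroke group. Pyruvate kinase (Pkm) had 1425, 1253 and 1706 CPM with stroke, against 349, 438 and 428 CPM without, and lactate dehydrogenase A (Ldha) had 749, 712 and 949 CPM with stroke, against 226, 299.6 and 316 CPM without. Gapdh, Eno1, Pgk1 and Gpi1 were 2.76-fold higher, 2.24-fold higher, 2.32-fold higher and 2.01-fold higher, and the processed copies of Gapdh and other glycolytic genes in the mouse genome may share their reads. Subunits of the respiratory chain rose as well, 14 of 16, by less. Cox5a had 50.8, 52.4 and 55 CPM with stroke, against 19.3, 22.7 and 18.9 CPM without, and the other 5 of lowest p, Cox6c, Atp5g1, Ndufa4, Cycs and Cox4i1, had log2 fold changes of 1.20 ± 0.12, 0.96 ± 0.10, 0.90 ± 0.10, 0.99 ± 0.11 and 1.07 ± 0.12.

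Of 12 genes of the hypoxia response, 8 rose and 2 fell, and 5 rose without replicate 1 or 3 of the stroke group or replicate 3 of the group without. Hif1a, the oxygen-regulated factor, had 875, 576 and 932 CPM with stroke, against 280.0, 289 and 303 CPM without. Ero1l, the oxidase that forms disulfides in the endoplasmic reticulum, had 96.5, 93 and 123 CPM with stroke, against 39.1, 42.7 and 46.8 CPM without, and Hilpda, which blocks fat breakdown in droplets, had 18.4, 17.5 and 17.3 CPM with stroke, against 8.69, 6.95 and 8.06 CPM without. The collagen prolyl hydroxylase P4ha1 fell, with 268, 339 and 313 CPM with stroke, against 475, 577 and 895 CPM without. Mxi1 fell by 0.49 on the log2 scale (SE 0.12), and Higd1a was 1.48-fold higher (log2 fold change 0.56 ± 0.14 SE). The letters ACGTG, the core of the hypoxia element, were in 7 of 8 hypoxia promoters (87.5%) and 7 of 11 glycolysis promoters (63.6%), beside 25.8% of the genes tested and 19.4% of all promoters.

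Genes of heme breakdown and iron storage rose, and the iron exporter fell. Of 17 genes of the NRF2, heme and iron list, 10 rose and 3 fell. Hmox1, which degrades heme, had 454, 436 and 394 CPM with stroke, against 46.1, 60.2 and 78.9 CPM without. The ferritin chains Ftl1 and Fth1, which store iron, were 3.18-fold higher (log2 fold change 1.67 ± 0.14 SE) and 2.81-fold higher (log2 fold change 1.49 ± 0.13 SE), and both have processed copies that may take up reads. Slc40a1, or ferroportin, the one known iron exporter, fell, with 217, 196 and 181 CPM with stroke, against 600.4, 711 and 640.0 CPM without. The antioxidant enzymes Txnrd1 and Prdx1 were 2.76-fold higher (log2 fold change 1.46 ± 0.13 SE) and 2.7-fold higher (log2 fold change 1.43 ± 0.14 SE). All 6 genes were without overlap between the groups, as were 13 of the 17 on the list and 56.1% of all genes tested.

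Lysosomal genes did not move as one, with 7 up and 6 down of 17, beside 27.2% up and 21.1% down of all genes tested. The glucuronidase Gusb had 707, 799 and 955 CPM with stroke, against 318, 344 and 384 CPM without. The proton pump subunit Atp6v1a was 2.15-fold higher (log2 fold change 1.11 ± 0.12 SE). Cathepsins C and L were 1.71-fold higher (log2 fold change 0.77 ± 0.10 SE) and 1.79-fold higher (log2 fold change 0.84 ± 0.14 SE), and progranulin (Grn) was 1.7-fold higher (log2 fold change 0.76 ± 0.10 SE). Laptm5 fell, with 5268, 4977 and 4819 CPM with stroke, against 6169.6, 7117 and 7072 CPM without.

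Receptors for engulfment moved in both directions. Of 16, 9 rose and 5 fell. The activating Fc receptor Fcgr4 had 162, 207 and 170.3 CPM with stroke, against 30.5, 25.2 and 28 CPM without, whereas Fcgr3 fell, with 1474, 1664 and 1486 CPM with stroke, against 2713, 2980.4 and 3259.9 CPM without. Mertk, the receptor by which microglia take up dying cells, fell too, with 339.8, 374 and 344 CPM with stroke, against 714, 779 and 887 CPM without. Itgb5, a chain of another such receptor, fell by 0.75 on the log2 scale (SE 0.11). Scarb1 was 2.43-fold higher (log2 fold change 1.28 ± 0.13 SE), and Cd93 was 5.87-fold higher (log2 fold change 2.55 ± 0.27 SE). Itgam, which encodes the CD11b used for selection, had 514, 604 and 606 CPM with stroke, against 427, 435 and 388 CPM without, and was 1.38-fold higher (log2 fold change 0.46 ± 0.10 SE).

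Complement genes were likewise split, with 7 up and 4 down of 13, or 2 down without replicate 3 of the stroke group or replicate 2 or 3 of the group without stroke, and 1 down without replicate 1 of the stroke group. Properdin (Cfp), which stabilises the alternative pathway, had 166, 166 and 153 CPM with stroke, against 8.06, 11.2 and 10.9 CPM without, and complement C3 had 122, 58.5 and 116 CPM with stroke, against 4.17, 12.1 and 3.55 CPM without. Both lay apart from the other group in each library. The C3a receptor C3ar1 was 1.58-fold higher (log2 fold change 0.66 ± 0.10 SE), and the low genes Vsig4 and Cfb rose, with 4.67, 7.01 and 4.31 CPM with stroke, against 0.453, 0.196 and 0.959 CPM without for Vsig4, and 4.67, 1.77 and 1.79 CPM with stroke, against 0.0906, 0 and 0 CPM without for Cfb.

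Arginase 1 (Arg1), which turns arginine into ornithine and marks wound macrophages, was near absent without stroke, with 312, 295 and 292 CPM with stroke, against 0.453, 0.783 and 0 CPM without. It was 714-fold higher (log2 fold change 9.48 ± 0.55 SE, edgeR adjusted p = 8.71e-09), a fold that rests on few counts without stroke. Of 12 genes of arginine use and alternative activation, 7 rose. The interleukin 4 receptor Il4ra had 489, 688 and 487 CPM with stroke, against 257, 237 and 265 CPM without. Odc1, which makes polyamines from ornithine, was 1.84-fold higher (log2 fold change 0.88 ± 0.11 SE). Arg2 was 23.3-fold higher (log2 fold change 4.54 ± 0.85 SE), and Ass1, which rebuilds arginine, was 7.02-fold higher (log2 fold change 2.81 ± 0.48 SE).

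Of 18 matrix genes, 10 rose and 2 fell. Ecm1 had 211, 135 and 204 CPM with stroke, against 3.26, 4.01 and 2.49 CPM without, and Tgfbi, a matrix protein induced by TGF-beta, had 1431, 886 and 1263 CPM with stroke, against 90.9, 77.9 and 85.3 CPM without. The urokinase receptor Plaur had 104, 77.8 and 99.99 CPM with stroke, against 29.6, 36.3 and 34.5 CPM without. The protease inhibitor Timp1 had 11.6, 6.82 and 7.88 CPM with stroke, against 0.181, 0 and 0 CPM without, and its 2 counts without stroke put the ratio at 141 (95% exact interval of the counts 38.9 to 1171, counting error only). The proteases Mmp19 and Adam8 were 30.7-fold higher (log2 fold change 4.94 ± 0.65 SE) and 32.2-fold higher (log2 fold change 5.01 ± 0.65 SE).

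Of 11 growth factors tested of 18, 6 rose and 3 fell. Hepatocyte growth factor (Hgf) had 21.1, 14.3 and 14.6 CPM with stroke, against 3.71, 2.05 and 1.63 CPM without, and Gdf15, a stress hormone, had 5.26, 3.29 and 4.25 CPM with stroke, against 0.634, 0.978 and 0.959 CPM without. Vegfa, which drives the growth of vessels, had 41.7, 16.6 and 42.1 CPM with stroke, against 4.8, 13 and 5.37 CPM without. Neuregulin 1 (Nrg1) had 6.04, 2.56 and 4.52 CPM with stroke and no counts without, and was at least 47.5-fold higher against a floor of 3 counts over the group. Tgfa fell, with 111, 144 and 93.7 CPM with stroke, against 204, 229.9 and 201 CPM without, and Hbegf, another ligand of the EGF receptor, fell as well, with 0.442, 0.67 and 1.05 CPM with stroke, against 1.99, 2.84 and 3.55 CPM without. The median of the list is the same with genes at 0 put at their bound.

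Integrins rose more often than they fell, with 10 up and 2 down of 14. Without any 1 of 5 libraries, all but replicate 1 of the group without stroke, 1 was down. Itgb7 had 116, 65.6 and 105 CPM with stroke, against 3.26, 5.58 and 4.61 CPM without, and Itgal, the alpha chain of LFA-1, had 109, 95 and 106 CPM with stroke, against 6.79, 11 and 2.78 CPM without. The hyaluronan receptor Cd44 had 232, 189 and 271 CPM with stroke, against 8.15, 18.8 and 14.7 CPM without. Itga5, which binds fibronectin, was 3.14-fold higher (log2 fold change 1.65 ± 0.18 SE), and L1cam was 6.36-fold higher (log2 fold change 2.67 ± 0.49 SE). Itga9 fell, with 32.3, 27.8 and 24.9 CPM with stroke, against 102, 77.3 and 91.2 CPM without.

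Of 16 S100, annexin and cytoskeletal genes, 15 rose and 1 fell. The filament vimentin (Vim) had 374, 209.8 and 336 CPM with stroke, against 5.62, 10.9 and 9.11 CPM without, and galectin 1 (Lgals1) had 225, 142 and 211 CPM with stroke, against 8.33, 11.4 and 9.31 CPM without. Both were lowest in replicate 2 among stroke libraries, as the monocyte genes were. Tagln2, Lmna, Tubb6 and S100a10 were 6.84-fold higher, 7.33-fold higher, 4.8-fold higher and 10.1-fold higher.

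Immediate early genes, which cells turn on within minutes of a stimulus, were higher. Of 18, 14 rose and none fell. Fos had 2243, 1288 and 1747 CPM with stroke, against 359, 181 and 141 CPM without, and Ier2 had 334, 239.9 and 274 CPM with stroke, against 89.9, 44.3 and 34 CPM without, so both varied within the group without stroke, where replicate 1 was the highest. Replicate 1 was the highest library of its group for 14 of the 18 genes with stroke and 12 without. The shares over all genes tested were 33.0% and 37.7%. Atf3, a stress factor of the same family as Fos, had 267, 119 and 234 CPM with stroke, against 43.1, 48.7 and 47.9 CPM without. Ier3, Klf2 and Fosl2 were 10.2-fold higher (log2 fold change 3.36 ± 0.30 SE), 4.23-fold higher (log2 fold change 2.08 ± 0.27 SE) and 3.49-fold higher (log2 fold change 1.80 ± 0.30 SE). The AP-1 element TGANTCA was in none of the list's 14 promoter windows, beside 4.75% of the genes tested and 7.98% of all promoters. It was in 9.72% of the windows of genes past 2-fold higher and 7.14% of those past 2-fold lower, and in 6.34% of all that rose and 3.94% of all that fell.

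Heat shock genes were lower on the median, at -0.75, with calls that turned on single libraries. Of 12, 7 fell, and the groups did not overlap for 1, beside 56.1% of all genes tested. Hspa1b, an inducible HSP70, had 14.6, 37 and 12.4 CPM with stroke, against 29.5, 142 and 377 CPM without, and its near copy Hspa1a had 11.5, 24.9 and 9.72 CPM with stroke, against 15.5, 74.7 and 201 CPM without. Reads of these copies may be split, and replicate 3 without stroke was the highest library of its group for all 12 genes of the list. Hsph1, a partner of HSP70, had 32.6, 49.2 and 33 CPM with stroke, against 47.6, 88.5 and 167 CPM without, and Dnajb1, its cofactor, had 70.4, 95 and 60.8 CPM with stroke, against 83.5, 166 and 201 CPM without. Without that library 2 fell and 2 rose, and Hspa1b and Hspa1a were at adjusted p = 0.106 and 0.177 in edgeR's test. Without replicate 1 or 3 of the stroke group, 2 fell, and both genes were at adjusted p of 0.0677 to 0.104.

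The integrated stress response, by which cells answer a lack of amino acids or misfolded protein, rose in part. Of 13 genes, 9 rose. Its serine and one-carbon enzymes Psat1, Mthfd2 and Shmt2 were 3.8-fold higher (log2 fold change 1.93 ± 0.24 SE), 2.93-fold higher (log2 fold change 1.55 ± 0.20 SE) and 2.18-fold higher (log2 fold change 1.13 ± 0.18 SE). Asparagine synthetase (Asns) had 8.21, 12.7 and 19.2 CPM with stroke, against 2.26, 4.4 and 4.41 CPM without. Sesn2 and Nupr1 were 2.27-fold higher and 1.85-fold higher. The factor that drives these genes, Atf4, had 83.8, 101 and 76.9 CPM with stroke, against 79.1, 77.6 and 80.8 CPM without, and did not pass the test.

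Genes of the cytosolic ribosome rose together, all 30 of them, with a median log2 fold change of 1.05. Rpsa had 167, 181 and 186 CPM with stroke, against 48.4, 59.4 and 53.7 CPM without, and Rpl32 had 154, 165 and 196 CPM with stroke, against 54.4, 68.3 and 62.4 CPM without. Rpl8, Rps19 and Rps18 had log2 fold changes of 1.28 ± 0.11, 1.52 ± 0.13 and 1.31 ± 0.12. Ribosomal protein genes have many processed copies, so reads may be split between them. Of 16 genes that build ribosomes, 5 rose and 1 fell, or none fell without replicate 1 or 3 of the stroke group or replicate 3 without stroke, and 2 without replicate 2 of either group, and the share that rose was near the 27.2% of all genes tested. Nucleolin (Ncl) had 249.5, 311 and 301 CPM with stroke, against 156, 191 and 169 CPM without.

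TGF-beta signalling, which holds microglia in the resting state, was lower for part of its genes. Of 13 genes of TGF-beta signalling, 6 fell and 1 rose, the last call being lost without any 1 of replicates 1 and 3 of the stroke group and 2 and 3 of the other, while 2 rose without replicate 2 of the stroke group. Endoglin (Eng), a coreceptor, had 32.4, 27.2 and 25.8 CPM with stroke, against 94.6, 89.4 and 88.1 CPM without. The signal carriers Smad3 and Smad2 fell by 0.62 (SE 0.12) and 0.37 (SE 0.11) on the log2 scale, and the inhibitors Smad7 and Ski by 0.51 (SE 0.13) and 0.58 (SE 0.16).

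Purinergic genes, by which microglia sense ATP, ADP and adenosine, were split with 7 up and 3 down of 11. Entpd1 (CD39), which breaks down ATP outside the cell, fell, with 359.6, 363 and 322 CPM with stroke, against 1180.0, 1061 and 1480.5 CPM without. The adenosine receptor Adora3 fell, with 42.9, 60.9 and 46.2 CPM with stroke, against 90.8, 121 and 134 CPM without, whereas Adora2b rose, with 18, 10.3 and 15.9 CPM with stroke, against 1.36, 0.685 and 0.863 CPM without. The ATP channel P2rx7 fell by 0.77 on the log2 scale (SE 0.11), and P2rx4 and P2ry14 were 1.4-fold higher (log2 fold change 0.48 ± 0.09 SE) and 6.25-fold higher (log2 fold change 2.64 ± 0.46 SE).

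Of 22 transcription factors, 6 rose and 10 fell. Of all genes tested 27.2% rose and 21.1% fell, so the share of factors that rose was near that of all genes. Maf, a factor of mature microglia, had 118, 115 and 119 CPM with stroke, against 264, 242 and 296 CPM without, and Etv5 had 143, 170.1 and 129.5 CPM with stroke, against 333, 235 and 261 CPM without. Nfkb1, the p50 subunit of NF-kappa B, had 89.3, 79 and 84.8 CPM with stroke, against 161, 154 and 167 CPM without. Among those that rose, Cebpb, a factor of inflammatory and wound macrophages, had 528, 501 and 522 CPM with stroke, against 97.1, 132 and 165 CPM without. Bhlhe40 was 8.8-fold higher (log2 fold change 3.14 ± 0.36 SE), and Tfec was 11.6-fold higher (log2 fold change 3.53 ± 0.40 SE).

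The genes with the largest rises were taken among called genes with at least 10 CPM on average with stroke and no overlap. Rhov, a small GTPase, had 22.5, 13.3 and 22.9 CPM with stroke and no counts without, and was at least 210-fold higher against the floor of 3 counts over the group. B3gnt5, which starts lacto-series glycolipids, had 24.3, 9.99 and 23.6 CPM with stroke and no counts without, and Htr7, a serotonin receptor, had 13.4, 8.53 and 12.1 CPM with stroke and no counts without. They were at least 210-fold and at least 122-fold higher. The membrane protein Emp1 had 167, 69 and 134 CPM with stroke, against 0, 0.391 and 0.0959 CPM without. The acute phase protein Saa3 was 192-fold higher (log2 fold change 7.59 ± 1.24 SE), clotting factor X (F10) was 177-fold higher (log2 fold change 7.47 ± 0.88 SE), and Ifitm1, an interferon-induced membrane protein, was 104-fold higher (log2 fold change 6.71 ± 0.89 SE). Fibronectin (Fn1), which was measured well above the floor in both groups, had 1162, 842 and 1644 CPM with stroke, against 11, 10.2 and 5.76 CPM without, and was 135-fold higher (log2 fold change 7.08 ± 0.64 SE). Fanci, Plcb1 and Ttc39c had at most 3 counts without stroke, and the ratios were 371 for Fanci (95% exact interval of the counts 66.4 to 14689), 182 for Plcb1 (50.3 to 1508) and 162 for Ttc39c (44.5 to 1337), covering counting error only. In limma voom, B3gnt5, Emp1 and Saa3 were at adjusted p of 0.051, 0.062 and 0.19.

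The largest falls were smaller in size. Tmem204 had 8.75, 5.91 and 3.41 CPM with stroke, against 47.8, 69.5 and 69.1 CPM without, and was 10.3-fold lower (log2 fold change -3.36 ± 0.37 SE, edgeR adjusted p = 2.29e-06). The potassium channel Kcnj9 had 1.97, 1.04 and 1.1 CPM with stroke, against 15.4, 8.9 and 10.7 CPM without. Gprasp2 and Gprasp1, which sort receptors after endocytosis, had 7.27, 5.54 and 2.84 CPM with stroke, against 38.2, 33.5 and 46.2 CPM without for Gprasp2, and 28.4, 17.8 and 14.7 CPM with stroke, against 105, 81.9 and 132 CPM without for Gprasp1. The genes of this paragraph were picked under the same rule as the rises, with the level of 10 CPM taken without stroke. The rule asks for no overlap between the groups, so their lack of overlap is not a result. Angptl7 and the zinc finger genes Zscan18 and Zfp37 were 7.44-fold lower, 7.14-fold lower and 5.98-fold lower. Gimap6, a GTPase of lymphocytes and other immune cells, was 6.23-fold lower. Ccdc162, Sec16b, Gm42944 and Tmc7 were 6.08-fold lower, 5.86-fold lower, 5.85-fold lower and 5.57-fold lower, and Sult1a1, a sulfotransferase, Upk1b and the orphan receptor Gpr165 were 5.51-fold lower, 5.41-fold lower and 5.38-fold lower.

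The same contrast in bexarotene-treated aged mice shares no library with that in vehicle-treated mice. There 4156 genes rose (26.8%) and 3294 fell (21.2%) with stroke. In all, 6180 genes were called in the same direction in both contrasts, which was 82.4% of the calls with vehicle and 83.0% of those with bexarotene, and 3 were called in opposite directions. For P2ry12 the log2 fold change with stroke was -2.02 ± 0.16 with vehicle and -1.93 ± 0.16 with bexarotene. Ccr2 had 4.39 ± 0.50 with vehicle and 3.63 ± 0.48 with bexarotene. Mki67 had 5.51 ± 0.47 with vehicle and 5.72 ± 0.47 with bexarotene. Arg1 had 9.48 ± 0.55 with vehicle and 11.40 ± 0.65 with bexarotene, Spp1 had 4.58 ± 0.57 with vehicle and 5.91 ± 0.61 with bexarotene, and Il1b had 4.22 ± 0.69 with vehicle and 2.31 ± 0.63 with bexarotene. The medians of the lists were -1.43 with vehicle and -1.35 with bexarotene for homeostatic microglia, 5.23 with vehicle and 4.06 with bexarotene for monocytes, 4.42 with vehicle and 4.83 with bexarotene for mitosis, and 3.20 with vehicle and 3.07 with bexarotene for the interferon response. Other lists lay further apart, with medians of 1.02 with vehicle and 0.35 with bexarotene for neutrophils, -0.75 with vehicle and -0.20 with bexarotene for heat shock, 1.86 with vehicle and 1.25 with bexarotene for immediate early genes, and 0.56 with vehicle and -0.96 with bexarotene for the choroid plexus. None of the 5 neutrophil calls with vehicle, 1 of the 7 heat shock calls and 8 of the 14 immediate early calls were also made with bexarotene.

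**Figure D4:**
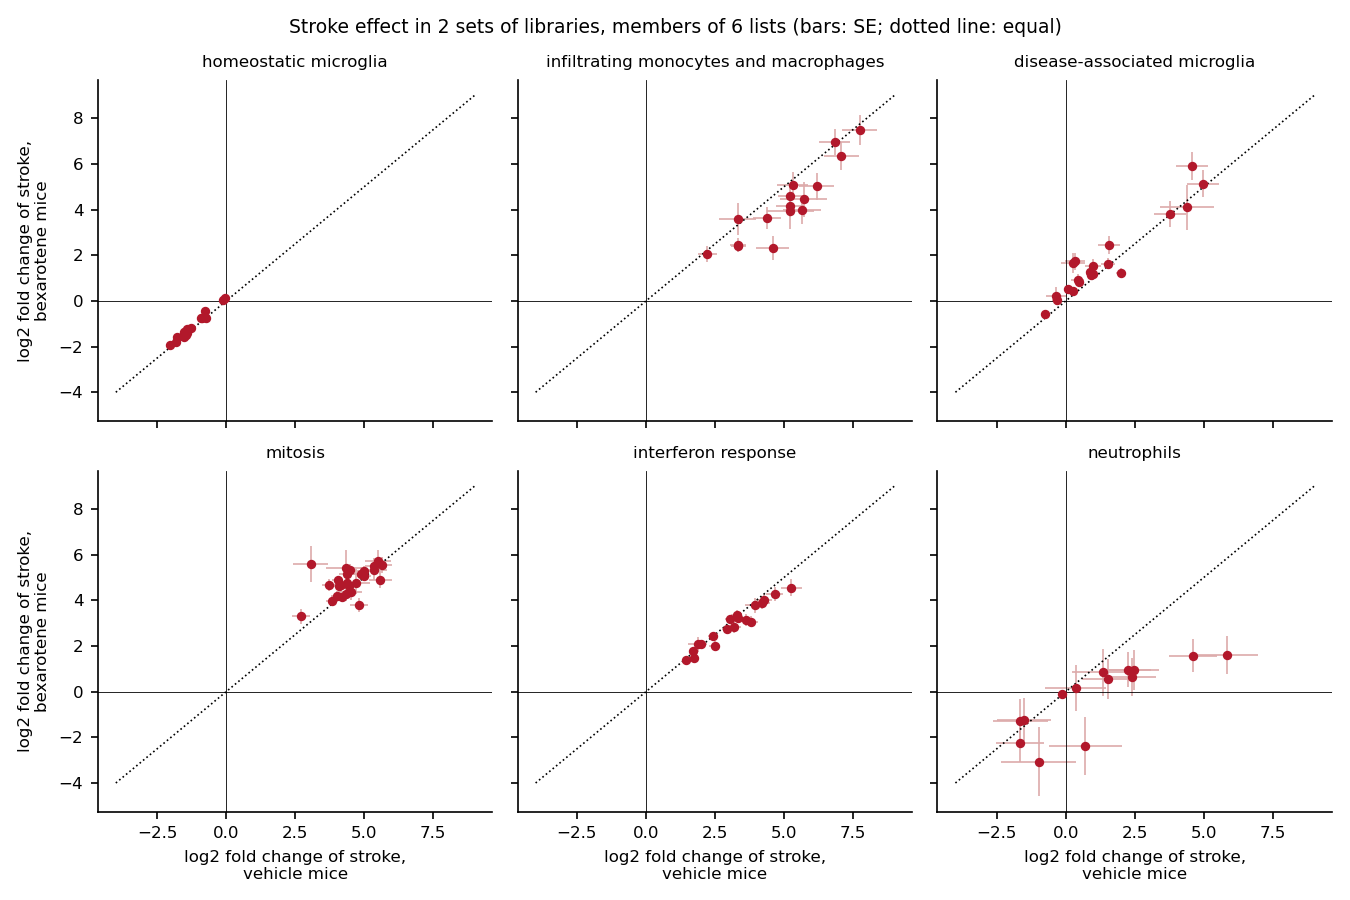
Log2 fold change with stroke in vehicle-treated aged mice (x axis) and in bexarotene-treated aged mice (y axis) for the members tested of 6 lists, with a line where both are equal. Members of the monocyte, mitosis and interferon lists lie in the upper right and those that fell on the homeostatic list in the lower left.

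The difference of the stroke effects, tested as an interaction in the same model, passed the threshold for no gene of 15528 in edgeR's test, with 638 genes at an unadjusted p under 0.05. DESeq2 called 9 genes, limma voom 0, and edgeR without a filter on low counts 256. The 5 genes of lowest p are given as values. Abcg1, which RXR and LXR are known to induce, had a log2 fold change with stroke of 0.40 ± 0.13 with vehicle and -0.55 ± 0.13 with bexarotene (difference 0.95 ± 0.18 SE, edgeR adjusted p = 0.535). Frmd6 had 0.39 ± 0.21 with vehicle and -1.14 ± 0.22 with bexarotene, Tnfsf14 had 5.68 ± 0.60 with vehicle and 1.99 ± 0.45 with bexarotene, and Fam43a had 0.31 ± 0.24 with vehicle and -1.18 ± 0.24 with bexarotene. Hecw2 had 0.246, 1.16 and 0.525 CPM with stroke and no counts without in vehicle-treated mice, and its log2 fold change with bexarotene was -1.73 ± 0.74. None of these differences passed the test, which does not show that the effects of stroke were the same with vehicle and with bexarotene.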

How the data were processed

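RNA of CD11b-selected brain cells was amplified and sequenced with a SMART-Seq V4 PLUS kit, per the labels' protocols. The authors deposited 1 table of raw read counts for 57010 genes. Trimmomatic 0.40, STAR 2.7.10a, GATK, R 4.4.2 and the build GRCm39 are named in the submitters' processing notes; annotation, counting method and strand setting: not given in the sources used here. Symbols came from GENCODE M21 (GRCm38), which named 52029 genes. All 18 libraries were fitted in 1 model of 6 groups with no covariate (edgeR 4.0.16, TMM, filterByExpr, quasi-likelihood test, glmTreat at a log2 fold change of 1) and tested by contrasts; 3 libraries stood in each group. CPM are counts over the library's total of genes tested times its TMM factor. The script was tested on simulated data. Alternatives were RLE, upper quartile and total scaling, other filters, DESeq2 1.42.0, limma voom 3.58.1, the 6 libraries alone, a replicate block, thinning and leaving out each library. Pairs of libraries of a group differed by 7.72 to 27.4 times the counting noise (chi-square per degree of freedom), so none was counted as a duplicate. The members and lists were chosen with earlier results of these data known. The text names the 15 genes that rose most and the 15 that fell most (among called, not overlapping, at 10 CPM or more on average in whichever group was higher), up to 6 members of each list in order of p, listed markers and 20 other genes; some genes that these rules name are not reported here. Promoter windows came from RefSeq (GRCm38.p6), with 1 window per symbol.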

Additional observations from a re-analysis of the deposited data

How the results depend on the processing

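With stroke, 6432 to 7066 genes were called when 1 library was left out at a time and 6955 to 7860 under the other settings, against 7497 with all libraries. Past 2-fold, 1281 to 1515 were called without 1 library and 1055 to 1791 otherwise. The count lower past 2-fold was 266, 176 to 293 without 1 library (176 without replicate 3 of the stroke group), 160 in DESeq2 and 141 in limma voom. The difference of the stroke effects had 9 calls in DESeq2, 256 without a filter on low counts and 0 to 0 without 1 library. The bexarotene contrast had 6172 to 7512 calls without 1 library. Thinned to the lowest library total, 7119 genes were called. The replicate numbers were not shown to pair libraries, as the deviations of same-numbered libraries correlated at 0.213, 0.0577 and 0.0349 and not every library correlated best with its own number; with the replicate block 7794 genes were called. The counts of the homeostatic, monocyte, replication, mitosis and interferon lists were the same under all 16 alternatives. With upper quartile scaling, 5 genes rose on each of the hypoxia, cholesterol synthesis and TNF lists, against 8, 8 and 9 with TMM, and 4 of the RXR list fell, against 2. In DESeq2 and limma voom, among other settings, 1 gene of the class II list fell. Of 273 genes named as called, 10 lost the call under some setting, among them Abcg1 with upper quartile scaling (adjusted p = 0.107) and Ccr7 in limma voom (0.0865). Log2 fold changes that turned sign were those of genes that did not pass the test: Abca1 (-0.0091 in DESeq2 and with RLE factors, -0.040 by library total, -0.13 by upper quartile, -0.088 to 0.062 without 1 library), Atf4 (-6.4e-06 by upper quartile), Ly6g (-0.051 when thinned, -0.21 to 0.74 without 1 library), Olfml3 (-0.11 to 0.027 without 1 library), Snap25 (-0.72 when thinned, -0.013 by upper quartile, -0.26 to 0.56 without 1 library) and Ttr (-0.038 to 2.12 without 1 library). Ttr rose only with the replicate block, at 1.22 (adjusted p = 0.0413), and without a filter. The causes were not tested. Genes under the depth of 3 counts a library could not be compared.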

Other observations

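Of 15 genes of cholesterol synthesis, 8 rose with stroke and none fell, or 5 rose without replicate 1 or 2 of the group without stroke. Squalene epoxidase (Sqle) had 19.2, 17 and 20.5 CPM with stroke, against 8.88, 6.26 and 8.73 CPM without. Insig1, which holds the pathway back, Idi1 and Cyp51 were 2.01-fold higher (log2 fold change 1.01 ± 0.19 SE), 1.84-fold higher (log2 fold change 0.88 ± 0.18 SE) and 1.63-fold higher (log2 fold change 0.70 ± 0.15 SE). Genes that make and break down lipid mediators were split, with 4 up and 4 down of 12. Of all genes tested 27.2% were up and 21.1% down. Pla2g7, which hydrolyses platelet-activating factor, had 369, 303 and 339 CPM with stroke, against 35.3, 36.8 and 44.7 CPM without. Hpgd, which inactivates prostaglandins, fell, with 209, 160.0 and 163 CPM with stroke, against 597, 646 and 596 CPM without, and Ptgs1, the constitutive prostaglandin synthase, fell, with 492, 675 and 528 CPM with stroke, against 1078, 1224 and 1072 CPM without. The leukotriene synthase Ltc4s fell by 0.88 on the log2 scale (SE 0.10), Hpgds by 0.56 (SE 0.09), and the prostaglandin E2 receptor Ptger4 was 4.37-fold higher (log2 fold change 2.13 ± 0.23 SE). Of 16 proteasome genes 15 rose, with a median log2 fold change of 0.56, and the activator subunits Psme1 and Psme2 were 1.75-fold higher (log2 fold change 0.81 ± 0.09 SE) and 1.78-fold higher (log2 fold change 0.83 ± 0.11 SE).

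Receptors for cytokines moved in both directions, 6 up and 6 down of 16, beside 27.2% up and 21.1% down of all genes tested. Csf1r, on which microglia depend for survival, had 5110.3, 5273 and 4877 CPM with stroke, against 9353, 9445 and 9745 CPM without. Il6ra and Ifngr1, chains of the interleukin 6 and interferon gamma receptors, fell, with 112, 106 and 87 CPM with stroke, against 257, 227 and 246 CPM without for Il6ra, and 796, 811 and 709 CPM with stroke, against 1557, 1755 and 1766 CPM without for Ifngr1. The shared chain Csf2rb of the GM-CSF receptor rose, with 237, 224 and 261 CPM with stroke, against 96.3, 94.4 and 76 CPM without, as did its near copy Csf2rb2, with 91.9, 81.4 and 94 CPM with stroke, against 35.4, 38.2 and 29.5 CPM without, and reads may be split between these. Of 12 inhibitory receptors, 4 rose and 6 fell, beside the same shares of all genes. Vsir (VISTA) fell, with 845, 809 and 701 CPM with stroke, against 1882, 1924 and 2039 CPM without, and Lag3 fell, with 37.8, 43 and 38.1 CPM with stroke, against 87, 115 and 113 CPM without. Pirb rose, with 326, 281 and 330.5 CPM with stroke, against 63.6, 59.2 and 53.3 CPM without, as did Pdcd1 (PD-1), with 51.3, 40.9 and 56.3 CPM with stroke, against 15.4, 22.4 and 17.8 CPM without. Lilrb4a was 7.58-fold higher (log2 fold change 2.92 ± 0.43 SE), and Siglece fell by 0.87 on the log2 scale (SE 0.15).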
